A study of Homo sapiens with 12 samples.

Results

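The expression of the human kinesin genes was followed in H1299 and H1703 cells kept for 24 h in SAHA or in DMSO. They were taken as every protein-coding gene whose symbol begins with KIF followed by a digit or by C, which gave 43 of the 58302 genes of the deposited tables and of the 19817 protein-coding ones. By known role, 14 are mitotic, 17 carry cargo along microtubules (transport kinesins) and 12 are ciliary, signalling or other. Of the transport genes, 7 are enriched in neurons and 10 are broadly expressed. One gene of the last class, KIF1BP, encodes a kinesin-binding protein and not a motor, and 7 non-coding genes with a KIF symbol were not members. SAHA (vorinostat) is a hydroxamic acid that inhibits zinc-dependent histone deacetylases. There were 4 groups of 3 libraries, a DMSO group and a SAHA group for each line. Both are established lines from non-small-cell lung cancers, each grown alone in plates. The protocol lists SAHA concentrations of 0, 2.5, 10 and 40 µM and a vehicle of 0.1% DMSO, and the concentration that the sequenced cells received was not given in the sources used here. Repeats are numbered in the labels, which do not say that these were separate cultures, so each p-value measures the spread between libraries, which may be technical.

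Kinesins are motor proteins that hydrolyse ATP to step along microtubules or to shorten them. In dividing cells the mitotic members slide spindle microtubules apart, align and release chromosomes and build the midzone at which the daughter cells separate, and their genes are switched on late in the cell cycle. In neurons the transport members carry vesicle precursors, mitochondria and RNA granules from the cell body along axons and dendrites. Several transport kinesins exist as gene pairs or trios in which one copy is used by nearly all cells and another mainly by neurons, such as KIF5B beside KIF5A and KIF5C.

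Total counts ran from 14.4M to 19.4M per library. The mitochondrial share of counts was 1.96 to 2.22% in the H1299 DMSO group and 4.0 to 4.23% in its SAHA group, and 5.44 to 6.27% and 8.77 to 10.9% in H1703. That share thus moved with the treatment in both lines, and its part in the kinesin changes was not tested. The labels call both lines epithelial. The summed level of 6 epithelial markers was 589 to 613 counts-per-million (CPM, scaled by TMM over the 12 libraries) in H1299 with DMSO. CDH1, the gene of the epithelial adhesion protein E-cadherin, had no count there. With SAHA that sum was 1354 to 1581 CPM. In H1703 it was 3975 to 4432 CPM with DMSO and 2946 to 3408 CPM with SAHA. Mesenchymal markers (4 genes) summed to 2961 to 3639 CPM in H1299 with DMSO and 1921 to 2309 CPM with SAHA. Their sums in H1703 were 1579 to 1656 and 2350 to 2527 CPM. The 7 neuronal markers summed to 77.6 to 107 CPM in H1299 with DMSO and 305 to 376 CPM with SAHA, and to 102 to 327 and 410 to 634 CPM in H1703. ELAVL4, a neuronal RNA-binding protein gene, had no count under DMSO in either line. Lymphocyte marker CD3E also had no count under DMSO in either line, the 4 leukocyte markers summed to at most 1.00 CPM in H1299 and 40.2 CPM in H1703, and nearly all of the latter was CD14 (32.9 ± 9.4 CPM with SAHA, SD, n = 3). The 4 fibroblast markers summed to 1.24 to 2.17 CPM in H1299 with DMSO and 33.2 to 46.0 CPM with SAHA, against 62.5 to 72.1 and 112 to 125 CPM in H1703, and the 3 endothelial markers summed to 0.275 to 5.96 CPM over the 12 libraries.

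The promoters of most mitotic kinesins held a short element that the transport kinesins, like most genes, mostly lacked. The cell-cycle genes homology region (CHR, searched as TTTGAA or TTCGAA on both strands) is known as the site through which late cell cycle genes are repressed outside division, often beside CCAAT boxes (CCAAT, both strands). In windows of 300 bases, from 250 before to 50 after each RefSeq start site, 35 of the 43 kinesin genes had 44 windows (RefSeq, GRCh38.p14). Of the 7 neuron-enriched transport genes only 4 had a window, and KIF21B, KIF5A and KIFC2 had none and were not searched. The CHR letters stood in 11 of 14 mitotic genes, 1 of 12 transport genes and 1 of 9 of the other genes, against 19.5% of all 27305 genes with such windows and 17.4% of the protein-coding ones. CCAAT letters stood in 11 of 14 mitotic and 4 of 12 transport genes, against 39.7% of all genes and 42.3% of protein-coding ones. A GC box (GGGCGG, both strands) was common to both classes, in 12 of 14 mitotic and 12 of 12 transport genes, against 48.3% of all genes and 65.4% of protein-coding ones. One mitotic gene, KIF15, and no transport gene had an E2F site (TTTCCCGC, TTTGGCGC, TTTCGCGC or TTTGCCGC, both strands), against 3.99% of all genes and 5.35% of protein-coding ones. The median GC content was 62% in the mitotic and 71.3% in the transport windows, against 58.7% over all windows and 62.7% over those of protein-coding genes. A match is a description of letters, not a site shown to be bound, and no match says only that these letters are not in the window.

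The stretches from 150 bases before to 30 bases after the start site are shown 5′ to 3′ on the gene's strand, with the CHR and CCAAT letters in capitals (CCAAT reads ATTGG and TTTGAA reads TTCAAA on the opposite strand). The first 5 mitotic genes carry both elements near the start site.
KIF11 (chr10:92592980-92593159, plus strand): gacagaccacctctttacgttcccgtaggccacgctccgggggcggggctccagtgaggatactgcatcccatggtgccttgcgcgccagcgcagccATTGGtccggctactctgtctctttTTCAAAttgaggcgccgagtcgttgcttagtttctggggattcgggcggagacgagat
KIF14 (chr1:200620722-200620901, minus strand): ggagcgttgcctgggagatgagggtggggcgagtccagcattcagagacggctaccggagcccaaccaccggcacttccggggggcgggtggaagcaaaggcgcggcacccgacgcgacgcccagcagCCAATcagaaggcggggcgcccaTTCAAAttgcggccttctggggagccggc
KIF18B (chr17:44947744-44947923, minus strand): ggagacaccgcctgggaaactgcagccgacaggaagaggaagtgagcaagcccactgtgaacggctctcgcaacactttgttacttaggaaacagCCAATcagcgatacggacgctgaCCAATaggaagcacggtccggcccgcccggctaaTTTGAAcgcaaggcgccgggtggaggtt
KIF23 (chr15:69414199-69414378, plus strand): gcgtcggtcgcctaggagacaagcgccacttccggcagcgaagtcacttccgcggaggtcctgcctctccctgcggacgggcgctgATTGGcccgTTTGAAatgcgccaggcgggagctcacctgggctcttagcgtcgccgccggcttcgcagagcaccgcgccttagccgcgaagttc
KIFC1 (chr6:33391673-33391852, plus strand): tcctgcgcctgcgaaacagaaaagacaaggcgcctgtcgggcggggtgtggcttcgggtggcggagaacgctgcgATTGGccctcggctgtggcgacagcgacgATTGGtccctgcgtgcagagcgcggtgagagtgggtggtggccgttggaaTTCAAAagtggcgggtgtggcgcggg
The CHR letters began at position -28 in KIF11, 2 in KIF14, 3 in KIF18B, -55 in KIF23 and 5 in KIFC1, counted from the start site. KIF20A is shown because it fell the most of the mitotic kinesins in H1703 and has a pair of CCAAT boxes but no CHR match in its window. KIF2C and KIF2B were the other mitotic genes without one.
KIF20A (chr5:138178962-138179141, plus strand): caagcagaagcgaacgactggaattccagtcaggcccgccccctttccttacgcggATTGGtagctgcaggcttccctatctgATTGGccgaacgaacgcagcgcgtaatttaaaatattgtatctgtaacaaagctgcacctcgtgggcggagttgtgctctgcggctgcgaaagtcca
KIF24, a suppressor of cilium formation, is shown as the member of the ciliary and other class with a CHR match. Its RefSeq start site lies 17897 bases from the start of the gene in the deposited tables, and those of the other printed genes lie 6 to 393 bases from it.
KIF24 (chr9:34329239-34329418, minus strand): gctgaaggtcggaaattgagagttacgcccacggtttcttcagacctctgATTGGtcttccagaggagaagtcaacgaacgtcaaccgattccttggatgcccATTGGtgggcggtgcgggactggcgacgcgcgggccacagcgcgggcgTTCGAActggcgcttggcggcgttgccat
For contrast, the neuronal genes KIF1A and KIF5C have neither element in the stretch, though the KIF5C window has CCAAT letters before it, at position -222. KIF5B, the broadly expressed partner of KIF5C, is the transport gene with a CHR match, at position -140.
KIF1A (chr2:240820190-240820369, minus strand): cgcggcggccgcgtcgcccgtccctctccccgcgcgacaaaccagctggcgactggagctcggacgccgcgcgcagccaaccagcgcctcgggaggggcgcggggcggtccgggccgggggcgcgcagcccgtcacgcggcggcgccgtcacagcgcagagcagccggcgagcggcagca
KIF5C (chr2:148875077-148875256, plus strand): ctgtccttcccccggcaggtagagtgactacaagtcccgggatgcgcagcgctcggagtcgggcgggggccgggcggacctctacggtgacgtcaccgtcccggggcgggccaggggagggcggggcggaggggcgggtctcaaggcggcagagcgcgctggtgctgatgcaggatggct
KIF5B (chr10:32056396-32056575, minus strand): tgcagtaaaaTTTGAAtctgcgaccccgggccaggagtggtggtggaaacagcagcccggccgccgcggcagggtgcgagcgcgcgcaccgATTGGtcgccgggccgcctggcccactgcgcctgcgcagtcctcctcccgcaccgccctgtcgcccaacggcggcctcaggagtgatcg

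In the changes after SAHA the classes differed. They were drawn up by known role but with earlier results of these data known, so the contrast is a description, not an independent test. The mitotic kinesins fell, with 13 of 13 tested genes lower in H1299 (30.4% of all 17277 genes tested were called lower) and 12 of 12 in H1703 (32.6% of 17273). Their median log2 fold change was -1.89 in H1299 and -3.59 in H1703, beside 0.02 over all genes tested in either line. The neuron-enriched transport kinesins were higher in 6 of 7 genes in H1299 and in 7 of 7 in H1703, where 33.3% and 34.7% of all genes tested were called higher. Their medians were 1.35 and 2.97. The broadly expressed transport kinesins changed in both directions, with medians of -0.30 and -0.03. Calls are by edgeR's quasi-likelihood test at a Benjamini-Hochberg adjusted p below 0.05 over all genes tested, and errors of log2 fold changes are SE. The values describe RNA per bulk sample, in which fewer cells of a kind and less RNA per cell cannot be told apart.

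**Figure D1:**
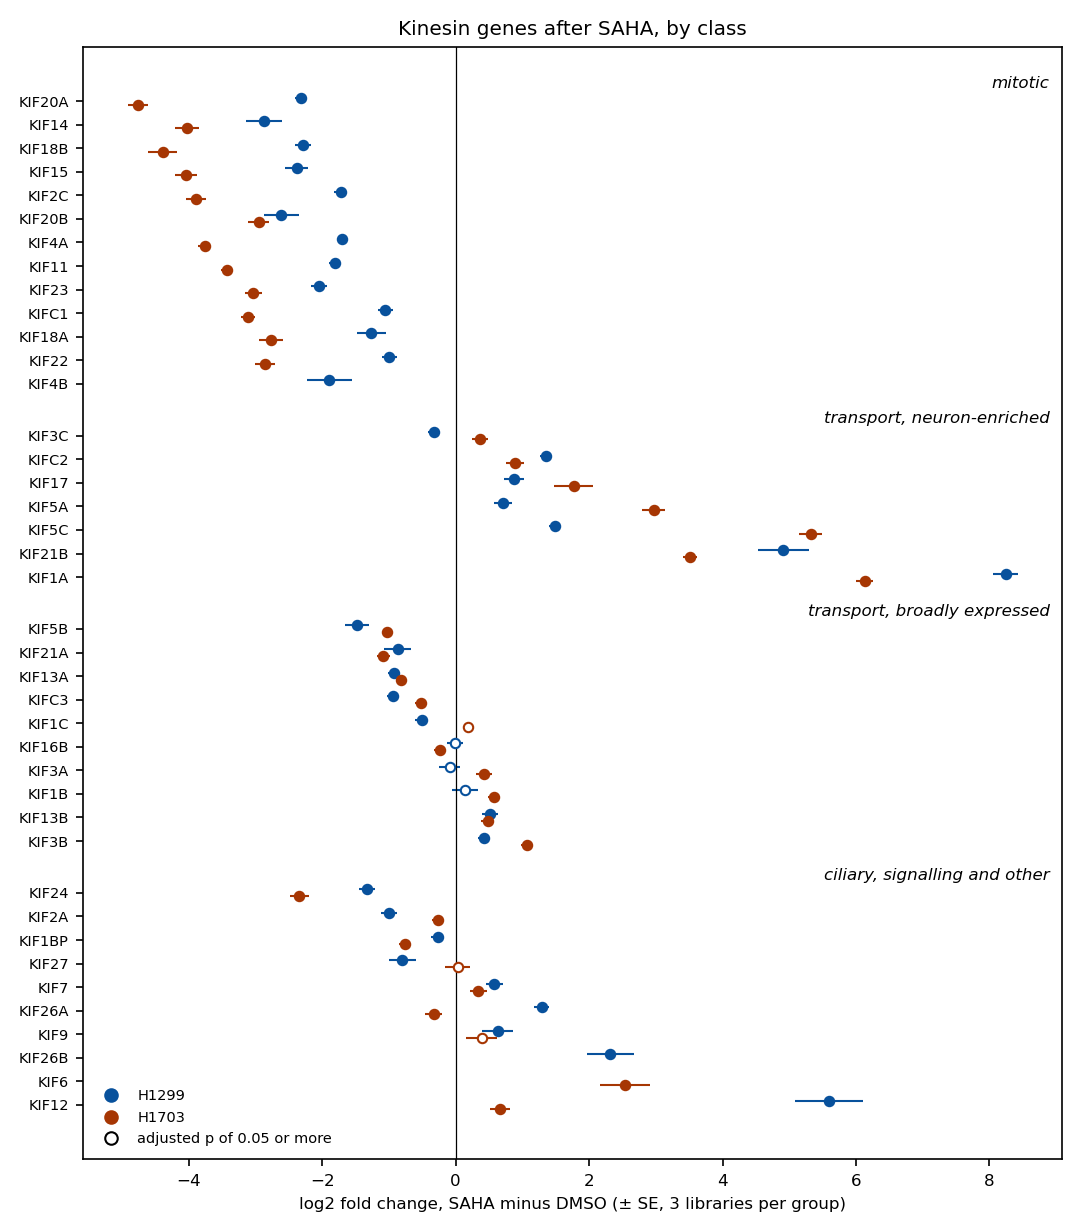
Log2 fold change, SAHA minus DMSO, of each tested kinesin gene in H1299 (blue) and H1703 (brown), with SE bars from 3 libraries per group and open symbols for an adjusted p of 0.05 or more. All mitotic genes lie left of 0, between -4.76 and -0.99, and all neuron-enriched transport genes except KIF3C in H1299 lie right of 0.

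Of the kinesins that build the spindle, KIF11 (the bipolar motor Eg5, which pushes the poles apart) stood at 146, 157 and 157 CPM in the 3 H1299 libraries with DMSO and at 49.7, 42.1 and 45.4 CPM with SAHA. In H1703 it stood at 116, 129 and 125 CPM with DMSO and at 11, 12 and 10.9 CPM with SAHA. By the deposited tables KIF11 (ENSG00000138160) spans chr10:92593286-92655395 (GRCh38). Every SAHA library lay below every DMSO library, and the fall was 3.48-fold in H1299 (log2 -1.80 ± 0.09, adjusted p = 5.7e-07) and 10.7-fold in H1703 (-3.43 ± 0.09, adjusted p = 8.4e-09). KIF15, which can keep spindles bipolar when KIF11 is blocked, went from 36.6, 35.6 and 39.8 to 8.77, 5.45 and 8.13 CPM in H1299. The H1703 values went from 16.7, 19.8 and 19.7 to 1.06, 1.10 and 1.18 CPM. The groups were apart in both lines (-2.38 ± 0.17 and -4.04 ± 0.16). KIFC1 (HSET), a motor that walks to the minus end and gathers spindle poles, went from 134, 140 and 141 to 58.3, 73.6 and 75.4 CPM in H1299. In H1703 the level went from 68.2, 73.0 and 71.6 to 8.98, 7.95 and 7.35 CPM. Its fall in H1299 (-1.05 ± 0.11, adjusted p = 2.8e-05) was among the smallest of the class, while in H1703 it was 8.65-fold (-3.11 ± 0.11, adjusted p = 2.2e-08).

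**Figure D2:**
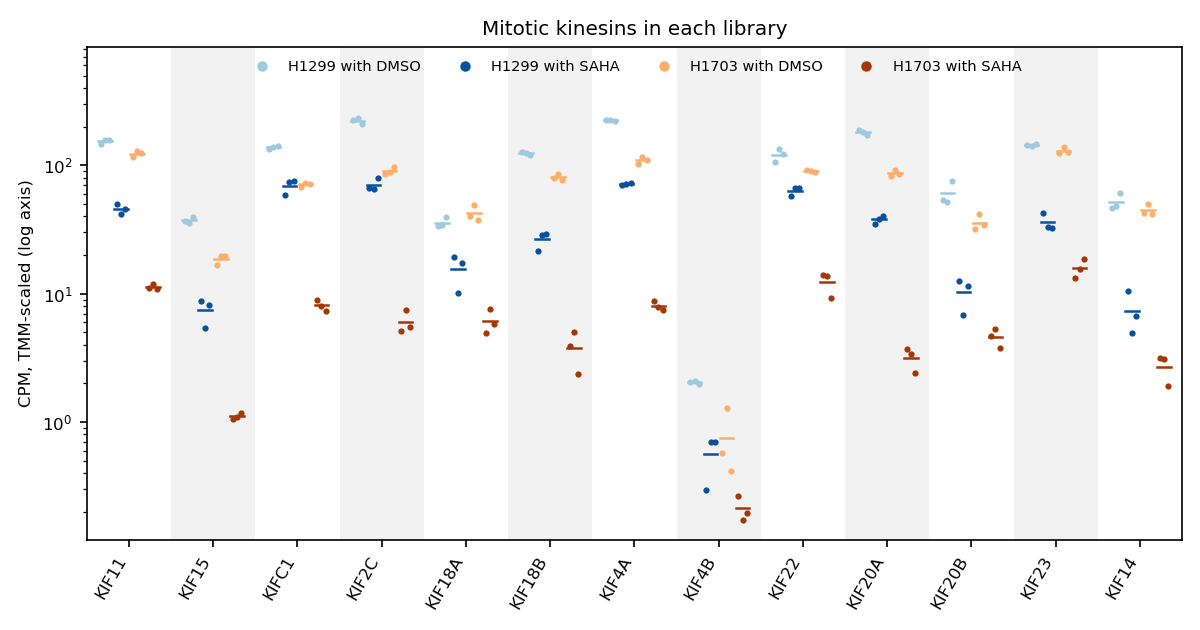
CPM of 13 mitotic kinesins in each library (points, log axis) with the group mean (bars), for H1299 and H1703 with DMSO and SAHA. KIF2B, with no count in any library, is left out. In each line the SAHA points of every tested gene lie below its DMSO points, as they do for 31.4% of all genes tested in H1299 and 36.0% in H1703.

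Among the kinesins that move chromosomes, KIF18B (a regulator of astral microtubule length) went from 126, 125 and 121 to 21.5, 28.6 and 29.4 CPM in H1299 (-2.28 ± 0.12, adjusted p = 7.9e-07). Libraries of H1703 went from 79.0, 85.7 and 77.0 to 3.92, 4.99 and 2.36 CPM, a 21.0-fold fall (-4.39 ± 0.22, adjusted p = 1.1e-06). Its relative KIF18A, which aligns chromosomes at the spindle equator, fell less, by 2.39-fold in H1299 (-1.26 ± 0.22) and 6.83-fold in H1703 (-2.77 ± 0.18), the smallest mitotic fall in that line. KIF2C (MCAK), which takes microtubules apart at kinetochores, fell from a mean of 223 CPM to 70.2 CPM in H1299 (-1.72 ± 0.10) and from 90.8 to 6.04 in H1703 (-3.89 ± 0.15). The chromokinesins, which bind chromosome arms, were KIF4A (-1.70 ± 0.07 and -3.76 ± 0.10) and KIF22 (-0.99 ± 0.11 and -2.85 ± 0.15). KIF22 had the smallest mitotic fall in H1299 and yet lay below its DMSO libraries in each of its SAHA libraries. KIF4B, an intronless near-copy of KIF4A, had 34, 35 and 35 counts in the H1299 DMSO libraries and 5, 11 and 12 in the SAHA libraries (-1.89 ± 0.34). It had too few counts for the test in H1703 (9, 22 and 6 against 4, 3 and 3). Reads of KIF4A and KIF4B may have been divided between these genes, so the level of KIF4B is uncertain. KIF2B had no count in any of the 12 libraries, and a count of 0 over a group allows up to 3 counts by counting error alone.

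The cytokinesis kinesins included KIF20A and KIF14, which had the largest falls of the family in H1703 and in H1299. KIF20A (MKLP2), which brings the chromosomal passenger complex to the midzone, went from 189, 182 and 172 to 35.2, 38.2 and 40.6 CPM in H1299. In H1703 it went from 83.1, 92.7 and 85.5 to 3.72, 3.37 and 2.43 CPM. The groups were far apart in both lines, and the fall was 4.95-fold in H1299 (-2.31 ± 0.09, adjusted p = 1.6e-07) and 27.0-fold in H1703 (-4.76 ± 0.15, adjusted p = 1.4e-08). KIF14, which recruits citron kinase to the midbody, went from 46.1, 48.2 and 60.5 to 10.4, 4.95 and 6.67 CPM in H1299, the largest fall of that line (-2.87 ± 0.27, adjusted p = 6.8e-05). The H1703 values went from 42.7, 50.2 and 42.0 to 3.13, 3.08 and 1.90 CPM (-4.03 ± 0.18, adjusted p = 1.1e-07). KIF20B (MPHOSPH1), another cytokinesis motor, went from 54.0, 51.9 and 75.4 to 12.5, 6.78 and 11.5 CPM in H1299 and from 31.8, 41.4 and 34.3 to 4.72, 5.28 and 3.74 CPM in H1703. Its falls were of like size in the lines (-2.61 ± 0.26 and -2.95 ± 0.16), and the difference was not called (-0.41 ± 0.32, adjusted p = 0.358). KIF23 (MKLP1), the motor of the centralspindlin complex, fell from 143 to 36.0 mean CPM in H1299 (-2.05 ± 0.12) and from 130 to 15.8 mean CPM in H1703 (-3.03 ± 0.13). KIF20A (ENSG00000112984, chr5:138178719-138187715) overlaps the genes BRD8 and CDC23, KIF15 overlaps TMEM42, KIF18A overlaps METTL15 and KIF4A overlaps PDZD11. Outside the mitotic class KIF24 overlaps UBAP1, KIF7 overlaps TICRR and KIF9 overlaps KLHL18 and the antisense gene KIF9-AS1. The use of strand in counting was not given in the sources used here, and these values may hold reads of the neighbour.

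The partners of these motors fell with them. Of 28 partner genes on a list of spindle, kinetochore and midzone proteins, 27 fell and 1 rose in each line (30.4% and 32.6% of all genes tested were called lower), with medians of -1.45 in H1299 and -2.93 in H1703. CENPE, the kinesin-7 motor of kinetochores whose symbol keeps it outside the KIF set, went from 52.3 ± 13 to 6.62 ± 2.5 CPM (SD, n = 3) in H1299 (-3.03 ± 0.31) and from 22.2 ± 4.0 to 1.29 ± 0.28 CPM in H1703 (-4.09 ± 0.21). TPX2, which recruits KIF11 to spindle microtubules, changed by -1.54 ± 0.08 in H1299, and HMMR by -2.30 ± 0.13. NUSAP1 (-3.36 ± 0.10) and TACC3 (-3.24 ± 0.09), both spindle microtubule proteins, had the smallest adjusted p of the list in H1703. The gene that rose in both lines was NEK9 (1.04 ± 0.08 and 0.96 ± 0.10), a kinase that acts in centrosome separation upstream of KIF11. With the replicate number as a block, CKAP2 was no longer called in H1703 (-1.30, adjusted p = 0.0504). Of 17 regulators of late cell cycle genes, 11 fell and 2 rose in H1299 (median -0.77) and 12 fell and 2 rose in H1703 (median -1.54), beside the same shares of all genes. FOXM1 (-2.27 ± 0.09 in H1299) and MYBL2 (-1.72 ± 0.10 in H1299, -4.15 ± 0.15 in H1703), which activate these genes, and E2F1 (-2.53 ± 0.10 in H1703) fell. The risers in both lines were CDKN1A, the gene of the CDK inhibitor p21 (2.06 ± 0.10 and 1.73 ± 0.07), and LIN37, a subunit of the DREAM repressor that acts at CHR elements (1.34 ± 0.17 and 0.97 ± 0.18). LIN37 is 1 subunit, and the complex as a whole was not tested. Lower calls of the list included TFDP1 in H1299, lost without the low-count filter (-1.05, adjusted p = 0.0576). LIN52 was called lower in H1703, a call lost in DESeq2 (-0.43, adjusted p = 0.0695).

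The neuron-enriched transport kinesins rose, several of them from low levels. Of the 7 neuronal markers, 5 of 5 tested rose in H1299, and 3 of 6 tested rose and 1 fell in H1703 (33.3% and 34.7% of all genes tested were called higher), and their part in the kinesin rises was not tested. KIF1A, which carries synaptic vesicle precursors, had 3, 5 and 5 counts in the H1299 libraries with DMSO and 1325, 1432 and 1313 with SAHA, or 0.181, 0.295 and 0.283 against 79.0, 90.8 and 76.8 CPM. In H1703 the level went from 2.36, 1.81 and 1.72 to 147, 132 and 129 CPM. It was at a few counts under DMSO in H1299 and low in H1703, and after SAHA it was well above its controls in all 6 libraries (8.24 ± 0.18, adjusted p = 1.4e-08, and 6.13 ± 0.13, adjusted p = 4.3e-09). By the deposited tables (GRCh38) KIF1A (ENSG00000130294) spans chr2:240713764-240820308, KIF21B (ENSG00000116852) chr1:200969390-201023700 and KIF5C (ENSG00000168280) chr2:148875250-149026759. The 13 counts behind the H1299 control level limit the precision of that fold change. Its SE is derived from the test statistic and can be too small at so few counts. KIF21B, a neuronal and lymphoid motor that regulates microtubule growth, went from 0.483, 0.709 and 0.339 to 17.0, 21.2 and 9.94 CPM in H1299 (4.91 ± 0.38, adjusted p = 1.5e-05). Libraries of H1703 went from 10.6, 10.4 and 11.7 to 132, 119 and 118 CPM (3.51 ± 0.10, adjusted p = 8.4e-09). KIF21B levels did not overlap between treatments in either line, and the third H1299 SAHA library was the lowest of its group.

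**Figure D3:**
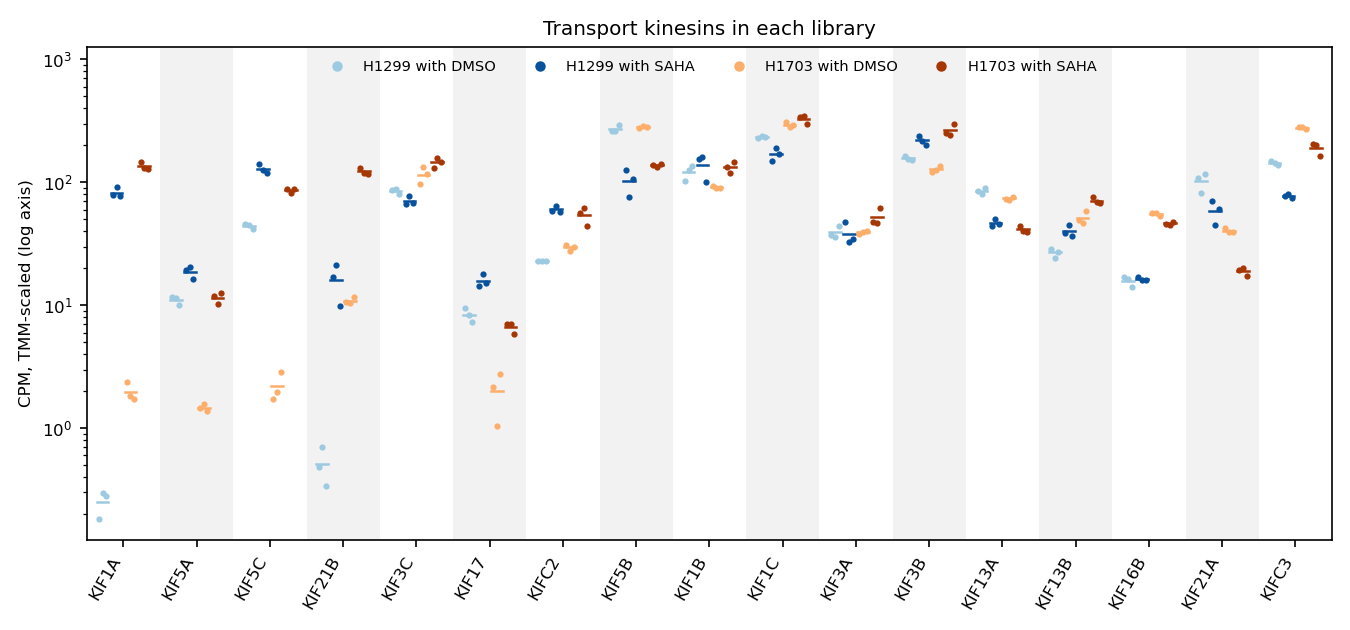
CPM of the 17 transport kinesins in each library (points, log axis) with the group mean (bars). The first 7 genes are the neuron-enriched ones. KIF1A and KIF21B start at 0.181 to 0.709 CPM in H1299 with DMSO, while KIF5B, KIF1C and KIF3B are high in every group.

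The kinesin-1 heavy chains of neurons rose in both lines and from different starting levels. KIF5C went from 46.1, 44.6 and 42.0 to 141, 127 and 119 CPM in H1299, a 2.81-fold rise (1.49 ± 0.09, adjusted p = 1.6e-06). In H1703 it went from 1.72, 1.98 and 2.89 to 87.5, 82.0 and 89.1 CPM, a 39.9-fold rise (5.32 ± 0.17, adjusted p = 1.4e-08). KIF5C was thus higher in H1299 than in H1703 before treatment, and the SAHA groups of the lines lay much closer together than the DMSO groups. KIF5A, the other neuronal heavy chain, went from 11.6, 11.4 and 10.1 to 19.4, 20.4 and 16.5 CPM in H1299 (0.71 ± 0.13, adjusted p = 0.00107). The H1703 values went from 1.47, 1.57 and 1.37 to 11.8, 10.3 and 12.5 CPM (2.97 ± 0.17, adjusted p = 4.3e-07), so that its H1703 SAHA libraries lay near the H1299 DMSO libraries. KIFC2, a neural C-terminal kinesin, went from 22.7, 23.0 and 22.8 to 58.6, 64.5 and 57.9 CPM in H1299 (1.35 ± 0.09, adjusted p = 2.8e-06) and from 31.1, 27.5 and 30 to 56.7, 61.7 and 44.0 CPM in H1703 (0.89 ± 0.13, adjusted p = 1.9e-04). It overlaps the gene FOXH1. KIF17, a motor of dendrites and cilia, went from a mean of 8.39 to 15.9 CPM in H1299 (0.87 ± 0.15) and from 1.99 to 6.62 CPM in H1703 (1.77 ± 0.29).

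KIF3C, the kinesin-2 subunit of neurons, was the transport gene called in opposite directions. It stood at 86.6, 87.6 and 80.7 CPM in H1299 with DMSO and at 67.0, 76.8 and 67.5 CPM with SAHA (-0.32 ± 0.09, adjusted p = 0.0101). In H1703 it stood at 96.4, 134 and 116 CPM with DMSO and at 132, 159 and 146 CPM with SAHA (0.36 ± 0.12, adjusted p = 0.0298). The H1703 groups overlapped, and the higher call there was lost without DMSO replicate 1 or 3 or SAHA replicate 2 or 3 (adjusted p = 0.081 to 0.111) and with library size only (0.0903). The lower call in H1299 was lost when all 12 libraries were fitted together (adjusted p = 0.0523). The difference between the lines was called (0.61 ± 0.16, adjusted p = 0.0086).

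Among the 10 broadly expressed transport kinesins, 2 rose, 5 fell and 3 were not called in H1299, and 4 rose, 5 fell and 1 was not called in H1703. Of all genes tested, 33.3% and 34.7% were called higher and 30.4% and 32.6% lower, so the number of higher calls in this class lay near or below the share of all genes. KIF5B, the kinesin-1 heavy chain of nearly all cells, went from 264, 261 and 294 to 127, 75.6 and 106 CPM in H1299 (-1.47 ± 0.18, adjusted p = 2.2e-04). In H1703 the level went from 275, 287 and 283 to 138, 134 and 140 CPM (-1.02 ± 0.07, adjusted p = 1.0e-06). It started at like levels in the lines and ended below every DMSO library in both, opposite in direction to KIF5A and KIF5C. KIF13A, an endosome motor, went from 84.4, 80 and 90.5 to 43.8, 50.1 and 46.0 CPM in H1299 and from 73.8, 72.1 and 76.0 to 44.5, 40.5 and 39.2 CPM in H1703 (-0.92 ± 0.09 and -0.82 ± 0.08). KIF21A, the broad relative of KIF21B, went from 109, 81.4 and 118 to 70.0, 44.7 and 60.6 CPM in H1299 and from 42.3, 39.7 and 39.2 to 19.4, 20 and 17.2 CPM in H1703 (-0.87 ± 0.20 and -1.08 ± 0.10). KIFC3, a minus-end motor of cell junctions, went from 148, 145 and 139 to 77.8, 81.1 and 74.5 CPM in H1299 and from 280, 280 and 272 to 206, 203 and 165 CPM in H1703 (-0.94 ± 0.08 and -0.52 ± 0.09). The SAHA libraries of these 4 genes, chosen for their falls, lay below all their DMSO libraries in both lines, as did those of 31.4% and 36.0% of all genes tested.

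The genes of this class that rose in both lines were KIF3B, a kinesin-2 subunit of cilia and axons (0.43 ± 0.09 and 1.07 ± 0.09), and KIF13B, known as GAKIN (0.52 ± 0.12 and 0.48 ± 0.10). KIF3A, the usual partner of KIF3B, stood at 37.6, 35.8 and 44.1 CPM with DMSO and 47.5, 32.6 and 34.3 CPM with SAHA in H1299, where the groups overlapped (-0.09 ± 0.16, adjusted p = 0.622). In H1703 it rose from 38.2, 39.5 and 39.9 to 47.4, 46.8 and 62.1 CPM (0.43 ± 0.12, adjusted p = 0.0104). KIF1B, a motor of mitochondria, was not called in H1299 (0.14 ± 0.19) and rose in H1703 (0.57 ± 0.09). KIF1C, a vesicle motor, stood at 229, 240 and 233 CPM with DMSO and 150, 192 and 169 CPM with SAHA in H1299 (-0.51 ± 0.10, adjusted p = 0.00147). In H1703 it stood at 309, 281 and 291 CPM against 342, 346 and 301 CPM, with overlapping groups (0.19 ± 0.08, adjusted p = 0.0623). There it was called higher without SAHA replicate 3 (0.24, adjusted p = 0.0112) and with RLE scaling (0.20, adjusted p = 0.048). A filter of 1 CPM in 3 libraries also gave a call (0.20, adjusted p = 0.0491). KIF16B, an early endosome motor, had 17.1, 16.5 and 14 CPM against 16.9, 16.0 and 16.0 CPM in H1299, the smallest change of a transport kinesin there (-0.01 ± 0.12, adjusted p = 0.924). In H1703 it had 56.4, 56.1 and 53.2 CPM against 45.9, 45.0 and 48.0 CPM (-0.24 ± 0.08, adjusted p = 0.0253), a call that was lost with the replicate block (adjusted p = 0.0571) and without DMSO replicate 1 or 2 or SAHA replicate 1 or 2 (adjusted p = 0.0546 to 0.0729).

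Levels of different genes were compared per length, on the deposited FPKM values (fragments scaled by gene length and library total). Within the 3 kinesin-1 heavy chains, KIF5B made up 88.3 ± 1.2% of the summed FPKM in H1299 with DMSO and 51.7 ± 6.3% with SAHA (SD, n = 3), and 99.1 ± 0.10% and 68.9 ± 0.71% in H1703. KIF5C took 8.66 ± 0.81% and then 40.0 ± 4.6% in H1299, and 0.466 ± 0.13% and then 26.2 ± 0.38% in H1703, and KIF5A reached 8.26 ± 1.7% and 4.92 ± 0.34%. The heavy chains together went from 54.9 ± 3.6 to 35.3 ± 5.9 FPKM in H1299 and from 44.1 ± 1.0 to 29.1 ± 0.91 FPKM in H1703, so the mixture shifted to the neuronal chains within a smaller sum of FPKM. Of the KIF1 genes, KIF1A went from 0.0473 ± 0.010% to 16.5 ± 0.47% in H1299 and from 0.308 ± 0.042% to 15.8 ± 0.72% in H1703, with KIF1C the highest in every group. Of the KIF21 pair, KIF21B went from 0.570 ± 0.32% to 23.1 ± 9.6% in H1299 and from 22.5 ± 1.5% to 87.5 ± 0.86% in H1703. It passed KIF21A in all 3 H1703 SAHA libraries and in none of H1299. The deposited FPKM use 1 length per gene, whichever isoforms a cell makes, which limits comparisons of levels between genes. They are scaled by library total without TMM, which limits comparisons of sums between treatments.

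**Figure D4:**
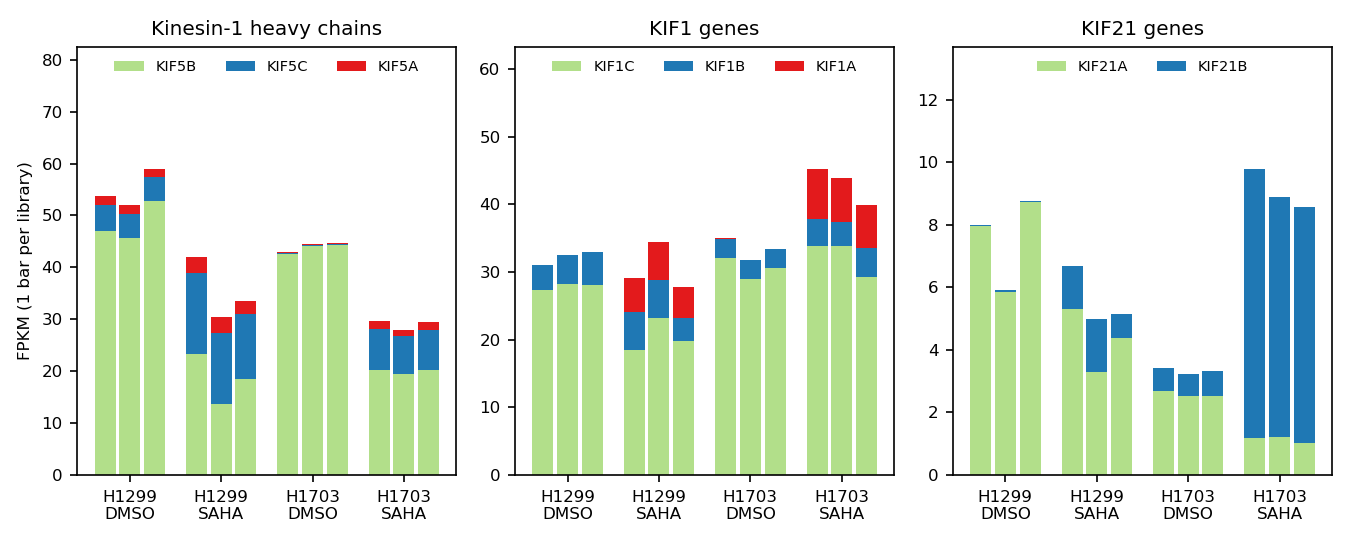
FPKM of the kinesin-1 heavy chains (left), the KIF1 genes (middle) and the KIF21 genes (right), 1 stacked bar per library in 4 groups. After SAHA the KIF5B part shrinks while KIF5C and KIF5A grow, KIF1A appears, and KIF21B becomes the larger part in H1703, at 86.5 to 88.0% of the pair.

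Over the whole family the summed FPKM went from 471 ± 8.8 to 264 ± 11 in H1299 and from 317 ± 7.9 to 195 ± 3.0 in H1703. In TMM-scaled CPM, not per length, it went from 3059 ± 49 to 1943 ± 65 and from 2643 ± 48 to 2102 ± 32. The mitotic sum went from 289 ± 3.2 to 92.5 ± 2.8 FPKM in H1299 and from 149 ± 7.0 to 12.1 ± 1.1 FPKM in H1703, or from 61.3 ± 0.75% to 35.1 ± 2.2% and from 46.8 ± 1.2% to 6.23 ± 0.54% of the family. The neuron-enriched share went from 4.13 ± 0.21% to 16.2 ± 1.1% and from 4.74 ± 0.25% to 22.1 ± 0.73%, reaching 42.6 ± 3.5 and 43.1 ± 1.8 FPKM. The broadly expressed transport sum went from 137 ± 6.2 to 104 ± 9.2 and from 130 ± 2.4 to 120 ± 2.6 FPKM, and its share went from 29.1 ± 0.79% to 39.5 ± 1.9% and from 40.8 ± 1.2% to 61.9 ± 1.4%. The order of single genes changed with it. The highest 3 kinesins in H1299 were KIF4A (53.2 ± 0.58 FPKM), KIF2C (50.3 ± 1.9) and KIF5B (48.5 ± 3.8) with DMSO, and KIF3B (39.5 ± 4.4), KIF1C (20.5 ± 2.4) and KIF5B (18.5 ± 4.9) with SAHA. The libraries of KIF4A and KIF2C did not overlap under DMSO, while those of KIF5B overlapped both. After SAHA those of KIF5B overlapped those of KIF1C and of KIFC1 and KIF4A, the next genes in the order. In H1703 the highest 3 were KIF5B (43.7 ± 0.98), KIF1C (30.6 ± 1.6) and KIF11 (24.0 ± 1.3) with DMSO, and KIF3B (38.6 ± 4.1), KIF1C (32.4 ± 2.6) and KIF5B (20 ± 0.43) with SAHA. The DMSO libraries of KIF11 overlapped those of KIF4A, the next in the order. No mitotic kinesin was among the 12 highest in H1703 after SAHA.

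**Figure D5:**
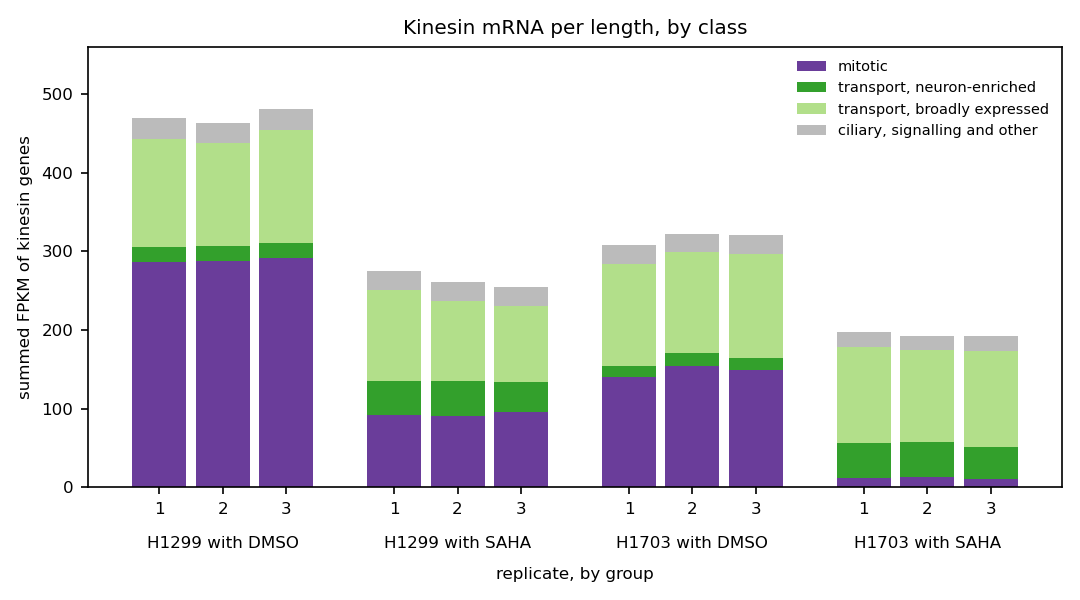
Summed FPKM of all kinesin genes in each library, stacked by class. The H1299 bars lie at 464 to 481 with DMSO and 254 to 275 with SAHA and the H1703 bars at 308 to 322 and 192 to 198, and the mitotic part at the base is the one that shrinks the most.

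Of the 12 ciliary, signalling and other genes, 4 fell and 5 rose among 9 tested in H1299, and 4 fell and 3 rose among 9 tested in H1703, where 32.6% of all genes tested were called lower and 34.7% higher (30.4% and 33.3% in H1299). The 3 higher calls in H1703 thus lay near the share of all genes. KIF24, which acts at centrioles to hold back cilia, fell from 34.3 to 14.1 mean CPM in H1299 (-1.33 ± 0.12) and from 20.2 to 3.95 mean CPM in H1703 (-2.34 ± 0.14). KIF2A, a depolymerase of spindle poles and of axons, went from 65.1, 65.5 and 67.7 to 41.0, 31.3 and 30.6 CPM in H1299 (-1.0 ± 0.12, adjusted p = 9.4e-05). Libraries of H1703 went from 52.8, 60.6 and 61.5 to 47.5, 47.3 and 49.7 CPM, with groups that did not overlap (-0.26 ± 0.09, adjusted p = 0.0285), a call lost without DMSO replicate 2 or 3 or SAHA replicate 1 or 2 (adjusted p = 0.0583 to 0.0891). It overlaps IPO11 and DIMT1. The kinesin-binding protein gene KIF1BP went from 48.5, 54.7 and 52.1 to 48.2, 40.8 and 45.0 CPM in H1299 (-0.27 ± 0.10, adjusted p = 0.0386, 0.0788 with the replicate block, 0.0849 in DESeq2 and 0.122 with library size only). It went from 87.1, 73.3 and 86.3 to 49.0, 48.6 and 46.3 CPM in H1703 (-0.76 ± 0.09, adjusted p = 5.3e-05). The H1299 call was also lost without DMSO replicate 2 or 3 or SAHA replicate 2 or 3 (adjusted p = 0.0726 to 0.115).

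KIF26A, an atypical kinesin, was called in opposite directions. It rose from 21.7, 19.5 and 19 to 45.2, 56.5 and 50.7 CPM in H1299 (1.29 ± 0.11, adjusted p = 1.3e-05). In H1703 it went from 25.1, 21.0 and 19.9 to 19.1, 17.0 and 15.7 CPM (-0.33 ± 0.13, adjusted p = 0.0438), with groups close to each other and a call lost without DMSO replicate 1 or 2 or SAHA replicate 2 or 3 (adjusted p = 0.0595 to 0.157), in DESeq2 (0.0788) and with RLE scaling (0.0537). KIF12 had 1, 0 and 4 counts in the H1299 DMSO libraries and 81, 102 and 75 after SAHA (5.59 ± 0.51, adjusted p = 1.5e-05), while in H1703 it was already at 6.57, 6.12 and 6.39 CPM and rose to 8.51, 10.2 and 11.3 CPM (0.67 ± 0.15). The Hedgehog regulator KIF7 was higher in both lines (0.58 ± 0.13 and 0.34 ± 0.13), with overlapping groups in H1703, where the call was lost without DMSO replicate 2 or 3 or SAHA replicate 1 or 2 (adjusted p = 0.0798 to 0.137), in DESeq2 (0.0651) and with library size only (0.128). Its relative KIF27 stood at 4.23, 3.72 and 4.80 CPM against 2.86, 2.28 and 2.46 CPM in H1299 (-0.80 ± 0.20, adjusted p = 0.00632) and at 3.63, 3.90 and 3.85 CPM against 4.12, 3.19 and 4.2 CPM in H1703 (0.03 ± 0.19, adjusted p = 0.893). KIF9, a ciliary gene, was called higher in H1299 (0.63 ± 0.23, adjusted p = 0.0375), not without DMSO replicate 1 or 2 or SAHA replicate 2 or 3 (adjusted p = 0.0547 to 0.154) or in DESeq2 (0.0506). In H1703 it was not called (0.39 ± 0.23), except without SAHA replicate 1 (adjusted p = 0.0187). The atypical kinesin gene KIF26B rose in H1299 from 9, 12 and 10 to 76, 35 and 47 counts (2.32 ± 0.35).

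KIF6, a ciliary kinesin, had no count in the H1299 DMSO libraries and 10, 10 and 6 with SAHA, which is at least 8.94-fold higher over a floor of 3 counts for the group. In H1703 it rose from 5, 11 and 5 to 28, 53 and 42 counts (2.54 ± 0.37, adjusted p = 2.0e-04). The level stayed low in both lines. KIF19 and KIF25 were too low for the test in either line, with 0 and 8 counts in the H1299 DMSO group, 0 and 27 in its SAHA group, 13 and 24 in H1703 with DMSO, and 26 and 9 with SAHA, as were KIF6 in H1299 and KIF26B in H1703 (16 counts with DMSO and 42 with SAHA).

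Among the proteins that couple transport kinesins to cargo more genes were called higher than lower. Of 23 light chain and adaptor genes, 15 rose and 4 fell in H1299 (median 0.30), and 14 rose and 2 fell in H1703 (median 0.80), where 33.3% and 34.7% of all genes tested were called higher and 30.4% and 32.6% lower. Without H1299 DMSO replicate 3, 10 were called higher in that line. KLC3, a kinesin-1 light chain, rose from 2.57 ± 0.51 to 38.0 ± 3.1 CPM (SD, n = 3) in H1299 (3.83 ± 0.16) and from 0.668 ± 0.16 to 8.70 ± 1.7 CPM in H1703 (3.70 ± 0.25). MAPK8IP1 (JIP1), a scaffold that binds the light chains, rose by 2.65 ± 0.13 and 2.43 ± 0.25, and its relative MAPK8IP2 by 2.18 ± 0.12 and 1.83 ± 0.10. BORCS5, a subunit of the complex that loads lysosomes onto kinesins, rose by 1.98 ± 0.11 in H1703. GRIP1, an adaptor of KIF5 for glutamate receptors, fell in both lines (-1.46 ± 0.18 and -1.47 ± 0.20), as did RHOT1, a mitochondrial adaptor, in H1299 (-0.97 ± 0.13) and the light chain KLC4 in H1703 (-0.54 ± 0.13). Calls lost with the replicate block included those of TRAK2 (adjusted p = 0.0637) and MADD (0.0627) in H1299 and of PLEKHM2 (0.0513) in H1703.

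Among 26 neuronal microtubule proteins, 16 of 25 tested rose and 3 fell in H1299 (median 0.96), and 14 rose and 4 fell in H1703 (median 0.57), beside 33.3% and 34.7% of all genes higher and 30.4% and 32.6% lower. STMN2, a neuronal stathmin gene with no count under DMSO in either line, was among those that rose, and at a floor of 3 counts over its DMSO group it also lies above these medians. MAP2, the microtubule protein of dendrites, and MAPT, the axonal protein tau, rose by 4.47 ± 0.14 and 4.52 ± 0.15 in H1703, and CAMSAP3, which binds minus ends, rose by 2.78 ± 0.12 in H1299. STMN1, which sequesters tubulin and is high in dividing cells, fell in H1299 (-1.06 ± 0.12), as did CAMSAP2 (-0.66 ± 0.11). STMN1 was also called lower in H1703, a call lost without the low-count filter (-0.99, adjusted p = 0.0623) or without SAHA replicate 2 (-0.88, adjusted p = 0.0688). MAP7 (-0.75 ± 0.09) and MAP4 (-0.51 ± 0.07) fell in H1703. MAP7 is known as a recruiter of kinesin-1 to microtubules. Tubulin gene TUBB3 rose in H1299 (1.87 ± 0.17) and had a wide spread in H1703 (132 ± 115 CPM with DMSO and 189 ± 120 CPM with SAHA, adjusted p = 0.623). Cytoplasmic dynein and dynactin, which move cargo the opposite way, had 10 genes lower and 5 higher of 21 tested in H1299 (median -0.33) and 5 lower and 9 higher in H1703 (median 0.02, 8 lower with library size only). Higher calls in H1299 lay below the 33.3% of all genes and lower calls above the 30.4%, and in H1703 the order was the opposite, beside 34.7% and 32.6%. DYNLL2, a dynein light chain shared with other complexes, rose in both lines (1.53 ± 0.08 and 1.63 ± 0.07), and the dynactin subunit DCTN6 fell in both (-0.76 ± 0.12 and -1.10 ± 0.11). With the replicate block DCTN2 was no longer called in H1703 (adjusted p = 0.0579). Without H1299 DMSO replicate 1, 3 dynein and dynactin genes were called higher in that line.

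Of 22 intraflagellar transport genes, the cargo of kinesin-2 in cilia, 10 rose and 5 fell in H1299 (median 0.31) and 11 rose and 5 fell in H1703 (median 0.26). The shares of all genes tested were 33.3% higher and 30.4% lower in H1299 and 34.7% and 32.6% in H1703, where 7 genes of the list were called higher with library size only. TTC30A (1.70 ± 0.14) and IFT43 (1.41 ± 0.10) rose in H1299, IFT20 rose in H1703 (1.22 ± 0.12), and IFT81 and its partner IFT74 fell in H1703 (-1.19 ± 0.10 and -1.11 ± 0.14). KIFAP3, the third subunit of the heterotrimeric kinesin-2 motor, rose from 19.2 ± 1.1 to 38.3 ± 0.39 CPM in H1299 (0.94 ± 0.10) and from 32.5 ± 2.9 to 57.9 ± 6.6 CPM in H1703 (0.85 ± 0.11). Calls of this list lost with the replicate block were IFT81 (adjusted p = 0.0665) and IFT88 (0.0843) in H1299 and IFT27 (0.117) and WDR35 (0.0571) in H1703, and 3 genes were called lower in H1703 without DMSO replicate 2. Of 10 silencers of neuronal genes, 3 fell and none rose in H1299 and 3 fell and 1 rose in H1703, so the lower calls were near the 30.4% and 32.6% of all genes tested. REST, the zinc finger repressor of neuronal genes, was lower in mean level in H1299 without a call (-1.16 ± 0.43, adjusted p = 0.0624) and fell in H1703 (-0.55 ± 0.11, adjusted p = 0.00135), a call lost in 1 fit over 12 libraries (-0.57, adjusted p = 0.155). Histone methyltransferase gene EHMT2 (-0.95 ± 0.09) and the REST-associated phosphatase gene CTDSP1 (-0.79 ± 0.08) fell in H1299, and the corepressor gene RCOR2 fell in H1703 (-1.52 ± 0.22) while RCOR1 rose (0.26 ± 0.08). The rise of RCOR1 was the 1 higher call of the list, and no silencer was called higher in H1703 without DMSO replicate 1 or 2 or with library size only.

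The lines were then compared in a fit over all 12 libraries, in which each line keeps its own controls. The fall of the mitotic kinesins was larger in H1703, with 11 of 13 tested differences called in that direction (21.2% of all 19105 genes were called lower in this comparison, and 13.7% higher) and a median difference of -1.74, beside -0.09 over all genes. The most negative was that of KIF20A (-2.52 ± 0.16, adjusted p = 6.9e-08), followed by KIF2C (-2.23 ± 0.17) and KIF18B (-2.19 ± 0.25). KIF20B and KIF4B were the mitotic genes without a called difference. Of the transport kinesins, 6 differences were called higher in H1703, 3 lower and 8 were not called. The rise was larger in H1703 for KIF5C (3.75 ± 0.18, adjusted p = 6.0e-09) and KIF5A (2.19 ± 0.21, adjusted p = 2.0e-06), and larger in H1299 for KIF1A (-2.19 ± 0.27, adjusted p = 2.8e-05), KIF21B (-1.47 ± 0.41, adjusted p = 0.015) and KIFC2 (-0.53 ± 0.16, adjusted p = 0.0207). The KIF21B call was lost without H1299 DMSO replicate 3 (-1.23, adjusted p = 0.0615), and that of KIFC2 without H1703 DMSO replicate 1 (-0.49, adjusted p = 0.0521). KIF12 had the largest negative difference (-4.98 ± 0.51, adjusted p = 4.9e-06), which rests on 5 counts in the H1299 controls. That of KIF1A rests on 13 counts there, so the SE of both can be too small. For KIF27 (0.76 ± 0.27, adjusted p = 0.0413) the call was lost with the replicate block (adjusted p = 0.058), with library size only (0.0793) and in 9 of 12 fits that left out a library (0.068 to 0.101). The difference for KIF5B was not called (0.37 ± 0.19, adjusted p = 0.152).

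Under DMSO the lines already differed in their kinesins. Mitotic kinesins were lower in H1703 in 10 of 13 tested genes (32.2% of all 19105 genes were called lower and 34.3% higher), with a median difference of -0.75, from 0.24 in KIF18A, which was not called, to -1.39 in KIF4B. KIF2C (-1.30 ± 0.11), KIF20A (-1.06 ± 0.10) and KIF4A (-1.03 ± 0.08) were among those lower in H1703. KIF14, KIF18A and KIF23 were not called, and KIF22 (-0.42 ± 0.13) was not called without H1299 DMSO replicate 2 (adjusted p = 0.0531). Transport kinesins were called higher in H1703 in 8 of 17 genes and lower in 7. KIF5C was 20.2-fold lower (-4.34 ± 0.15, adjusted p = 5.8e-12) and KIF5A 7.44-fold lower (-2.89 ± 0.16) in H1703, while KIF21B was 21.2-fold higher (4.40 ± 0.32) and KIF1A 7.53-fold higher (2.91 ± 0.24). KIF17 was 4.25-fold lower in H1703 (-2.09 ± 0.25, adjusted p = 5.3e-06), and its SAHA effect did not differ by a call (0.82 ± 0.34, adjusted p = 0.075). KIF16B was 3.48-fold higher in H1703 (1.80 ± 0.09), with no called difference in its SAHA effect either (-0.29 ± 0.13, adjusted p = 0.0987). The comparison under DMSO and that of the SAHA effects share the DMSO libraries, so no test was made of one against the other. KIF13A (-0.20 ± 0.08) and KIF1B (-0.41 ± 0.16) were called lower in H1703, and neither call was kept with the replicate block (adjusted p = 0.0757 and 0.0575) or in 9 and 5 of 12 fits that left out a library (0.0527 to 0.181 and 0.0637 to 0.125). With library size only KIF1C, KIF3C and KIFC2 were no longer called higher in H1703.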

How the data were processed

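Poly(A) RNA libraries of 12 samples, 3 per line and treatment, were sequenced as read pairs, per the labels' protocols, which give both a directional and a non-directional kit. Per the submitters' processing notes the genome build was GRCh38 and the tools were HISAT2 2.1.0, StringTie 1.3.3b, fastp, FastQC 0.11.9 and edgeR 3.30.3, with roles not given in the sources used here. For each line the authors deposited 1 table with raw counts and FPKM values per library, per the file headers. The deposited FPKM matched counts over the column total and a fixed gene length (within 1% for 100% of 201185 values). Control columns carry a shorthand and were taken as DMSO, since each line has 2 groups only.

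Counts were tested with edgeR 4.0.16 (R 4.3.3, limma 3.58.1): genes were kept by filterByExpr with a minimum count of 10 and a total of 15, scaled by TMM and fitted by robust quasi-likelihood, and p-values were adjusted by Benjamini-Hochberg across the genes tested and called below 0.05. Each line was fitted alone, 3 libraries against 3. The difference of the SAHA effect (H1703 minus H1299) and the lines under DMSO came from 1 fit over 12 libraries. SE is the log2 fold change divided by the root of F, which can understate the error where a group holds few counts. Folds against a group at 0 use a floor of 3 counts over the group, which covers counting error only. Replicate numbers appear as a batch tag in the labels, and the main fits did not pair the samples by them. Within a line, deviations of same-numbered DMSO and SAHA libraries correlated at -0.031 to 0.0333 over 19105 genes. Those of differently numbered libraries correlated at -0.0365 to 0.0439, so the counts show no pairing by number. The script was tested on simulated counts. Alternatives were RLE scaling, library size only, other filters, DESeq2 1.42.0, the replicate block, 1 fit over 12 libraries, leaving out each library, and other class membership.

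Members, classes and lists were chosen with earlier results of these data known. Values in every library are given for the 3 largest mitotic falls, the 4 largest transport rises and the 3 largest transport falls per line, for genes with opposite calls, for the 3 most positive and 3 most negative differences between lines and for a set of fixed genes. List genes named are those with the smallest adjusted p in each direction, and a few others were chosen after their values were seen. One gene of the lists is counted in them and not reported here by name. Promoter sequence is RefSeq's (GRCh38.p14).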

Additional observations from a re-analysis of the deposited data

Results flagged for a closer look

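The effect of SAHA differed between the lines in 27 of 41 tested kinesin genes, by edgeR's test of the difference itself. Of these, 19 were called lower and 8 higher, beside 21.2% and 13.7% of all 19105 genes tested. The values are log2 differences of the SAHA effect, H1703 minus H1299. Of the mitotic kinesins the fall was larger in H1703 for KIF20A (-2.52), KIF2C (-2.23), KIF18B (-2.19), KIF4A (-2.13), KIFC1 (-2.13), KIF22 (-1.93), KIF15 (-1.74), KIF11 (-1.70), KIF18A (-1.59), KIF14 (-1.24) and KIF23 (-1.05). Of the transport kinesins the difference was lower for KIF1A (-2.19), KIF21B (-1.47) and KIFC2 (-0.53) and higher for KIF5C (3.75), KIF5A (2.19), KIF1C (0.63), KIF3C (0.61), KIF3B (0.56) and KIFC3 (0.35). The 3 lower calls among 17 transport genes lay near the share of all genes, as did the 2 higher calls among 11 other genes. Among the other genes it was lower for KIF12 (-4.98), KIF6 (-3.59), KIF26A (-1.69), KIF24 (-1.08) and KIF1BP (-0.57) and higher for KIF27 (0.76) and KIF2A (0.67). KIF6 had no count in H1299 with DMSO, so its fitted value depends on the prior count and is no bound (adjusted p = 0.037), and the call was lost in DESeq2 (adjusted p = 0.0833) and in 7 of 12 fits that left out a library. KIFC3 (adjusted p = 0.0379) was not called when scaled by library size only (adjusted p = 0.144), without the low-count filter (0.0588) and in 9 of 12 fits that left out a library (0.0538 to 0.102). KIF27 lost its call in 9 of 12 such fits (0.068 to 0.101), and KIF21B and KIFC2 in 1 each. No cause of these differences was tested.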

How the results depend on the processing

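Each mitotic kinesin called lower in a line kept that call under every alternative that tested it. Among counts, medians and shares, 484 values stayed within their limits and 30 moved. The median of the transport kinesins in H1299 (0.14) was 0.22 with library size only and 0.29 with KIF21A, KIF21B and KIFC3 left out of the class, and 0.02 to 0.31 when 1 library was left out. In H1703 it was 0.37 with library size only, and the other class membership gave 3 transport genes called lower. The mitotic median in H1299 ran from -1.86 to -1.99 without 1 library, and 2 to 3 of the other kinesins were called lower in H1703. For the difference between lines, 1 of the other kinesins was called higher with library size only, without the low-count filter and with the replicate block, and 1 to 2 without 1 library. Under DMSO, library size only gave 5 transport genes higher and 2 other genes lower, and it moved the median of all genes by -0.17. Among the genes reported here, the replicate block changed no other call or count beside those given with the results and GAP43 in H1299 (adjusted p = 0.0556). With CPM in place of FPKM the mitotic share was 48.9% and 23.8% in H1299 and 35.0% and 3.96% in H1703. Genes near 0 that were not called changed sign: KIF16B in H1299 (0.00 with RLE or DESeq2, 0.06 with library size only, 0.04 in 1 fit, -0.12 to 0.02 without 1 library), KIF3A in H1299 (-0.28 to 0.00 without 1 library) and KIF27 in H1703 (-0.07 with library size only, -0.04 to 0.15 without 1 library). Depth limited KIF6, KIF12, KIF19, KIF25, KIF26B and KIF4B, whose groups held few counts.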
